A study of Mus musculus with 44 samples.

Results

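The late inner cell mass (ICM) without Oct4 gained accessibility at more places than it lost it, compared with the early ICM without Oct4: of 152393 chromatin accessibility peaks measured by ATAC-seq, 2320 were higher and 1033 lower in the late ICM. These are 1.52% and 0.678% of the peaks tested (limma, Benjamini-Hochberg adjusted p under 0.05, over all peaks). A CDX-type sequence word was in 14.5% of the gained peaks and 3.03% of all peaks, and the gained peaks lay within 1 kb of a transcription start site in 8.45% of cases against 19.5% of all peaks. The lost peaks held a GATA word in 32.8% and a SOX word in 19.2%, against 17.5% and 10.9% of all peaks, and the peaks lower in the Ctrl step held them in 57.7% and 17.5%. The comparison used all 8 libraries of Pou5f1-KO ICM, 4 early and 4 late, out of 44 libraries in the series, and every peak of the table. It follows chromatin over time in embryos that lack Oct4, the protein product of Pou5f1.

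ATAC-seq cuts open DNA with a transposase, so a peak's value reads how accessible a stretch of chromatin is. Values are regularized log2 (rlog) counts of insertions in windows of 200 bp, so a difference of 1 is a doubling before shrinkage. All embryos were mouse, on a B6C3F1 background. Pou5f1 +/mKO2 males were crossed with Pou5f1 flox/flox; Zp3-Cre females. Zp3-Cre acts in the growing oocyte, so every embryo of this cross lacked the maternal Pou5f1 product. KO embryos had received the mKO2 allele and were recognised by its fluorescence (maternal-zygotic KO), whereas Ctrl embryos carried an intact paternal allele and were maternal KO only. Early ICM corresponded to E3.75 and late ICM to E4.5. Embryos for ICM libraries grew from E2.5 on in KSOM medium to which 1 μM of the MEK inhibitor PD0325901 was added, a treatment that Ctrl and KO shared and that suppresses primitive endoderm. The morula stages used for comparison had no inhibitor. ICMs were isolated by immunosurgery, which removes the trophectoderm, and each library pooled 20 to 40 ICMs. The labels do not say whether libraries of a group came from separate crosses, so p-values measure the spread between pools. The Sox2 line, used for comparison, was built alike with a Sox2 EGFP allele, and it gave 4 early and 4 late libraries each of Sox2-KO and of its own Ctrl.

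Oct4 is a POU-domain transcription factor that often binds DNA together with Sox2 at a composite OCT-SOX element and sustains the epiblast, the pluripotent lineage of the ICM. The ICM gives rise to the epiblast and the primitive endoderm, while the outer cells form the trophectoderm. In trophectoderm, TEAD4 with YAP1 turns on Cdx2 and Gata3, and Oct4 and Cdx2 are known to oppose each other. GATA factors act both in trophectoderm and in primitive endoderm, and CDX, TEAD, TFAP2 and AP-1 proteins each recognise short words in accessible DNA.

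Sequences of 5 peaks are given here, chosen among the 6 largest increases and the 6 largest decreases because they hold such words (GRCm38, plus strand, RefSeq genome sequence). The first 3 are increases. Capitals mark the CDX word TTTATGG and the TEAD word GGAATG on either strand (reverse complements CCATAAA and CATTCC). They lie at chr14:64719153-64719352 in an intron 66.7 kb from the Kif13b transcription start site (TSS), at chr16:8486203-8486402 in an intron 0.531 kb from the Mettl22 TSS, and at chr3:137828046-137828245 between genes 36.3 kb from the H2afz TSS.
Kif13b: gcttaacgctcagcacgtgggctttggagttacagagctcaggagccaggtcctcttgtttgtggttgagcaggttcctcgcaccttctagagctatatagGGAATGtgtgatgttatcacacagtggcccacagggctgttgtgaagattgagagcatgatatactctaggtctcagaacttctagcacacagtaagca
Mettl22: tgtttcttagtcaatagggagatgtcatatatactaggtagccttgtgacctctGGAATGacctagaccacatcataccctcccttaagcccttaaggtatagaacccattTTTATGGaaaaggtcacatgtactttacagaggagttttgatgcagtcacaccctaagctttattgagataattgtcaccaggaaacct
H2afz: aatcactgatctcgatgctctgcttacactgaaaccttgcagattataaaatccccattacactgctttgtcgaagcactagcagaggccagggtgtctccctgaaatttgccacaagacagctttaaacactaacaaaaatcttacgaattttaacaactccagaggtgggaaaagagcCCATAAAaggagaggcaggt

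The other two peaks became less accessible, and capitals mark the GATA word AGATAA on either strand (reverse complement TTATCT). They lie at chr7:82185333-82185532 in an intron 10.2 kb from the Sh3gl3 TSS and at chr1:5594350-5594549 in an intron 2.07 kb from the Oprk1 TSS. Both windows are made largely of short tandem repeats, in which the word recurs. Whether the word matters there apart from the repeat was not tested.
Sh3gl3: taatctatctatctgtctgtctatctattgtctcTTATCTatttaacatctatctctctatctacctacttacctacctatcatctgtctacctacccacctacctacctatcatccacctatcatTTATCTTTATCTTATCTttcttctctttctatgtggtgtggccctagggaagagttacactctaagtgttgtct
Oprk1: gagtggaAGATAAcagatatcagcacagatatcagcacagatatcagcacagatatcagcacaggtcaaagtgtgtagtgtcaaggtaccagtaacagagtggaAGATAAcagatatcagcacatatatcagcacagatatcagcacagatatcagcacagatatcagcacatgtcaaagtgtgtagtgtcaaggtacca
Of the 6 peaks with the largest increases, 2 held a CDX word, 2 a TEAD word, 1 a GATA word (Mettl22, left in lower case above) and 1 a SOX word (ACAATG or its reverse complement CATTGT), and 2 held none of the 4. Of the 6 with the largest decreases, 0 held a CDX or a TEAD word, 2 a GATA word and 1 a SOX word, and 3 held none.

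The 8 libraries were comparable in overall signal. Median rlog over all peaks was 2.40 to 2.53 in the early and 2.35 to 2.58 in the late KO libraries, and replicates correlated at 0.795 to 0.874 early and at 0.836 to 0.885 late across peaks. The median difference over all peaks, late minus early, was -0.02. Read depth is unknown, because only transformed values were used, so no counting error can be given. The genotype could not be checked at the Pou5f1 locus. The study's methods describe floxed exons on the maternal allele, which Ctrl and KO embryos both inherited after Zp3-Cre. For the paternal mKO2 allele they describe inserted cassettes, while the discussion names removed exons. A peak over those exons therefore need not differ between KO and Ctrl. Of the 4 peaks within 2 kb of the Pou5f1 TSSs, the one at the promoter (chr17:35505888-35506087) was lower in KO than in Ctrl in early ICM (-1.13 ± 0.33, limma adjusted p = 0.0152) and not in late ICM (0.06, limma adjusted p = 0.934). The others did not pass between KO and Ctrl at either stage, and mean rlog at the coding exon peak was 2.60 in KO and 2.62 in Ctrl late ICM. None of the 4 passed between the KO stages (smallest limma adjusted p = 0.243).

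The 2320 higher peaks had a median increase of 1.62 (log2), which is 3.08-fold, and the 1033 lower peaks a median decrease of -1.53, which is 2.88-fold. Since these peaks were picked for this contrast, their values in it are a description. In 1919 of the higher and 784 of the lower peaks, the 4 late libraries lay entirely beyond the 4 early libraries. Over all peaks, such separation occurred upward in 4.1% and downward in 2.97%. Mean rlog over the higher peaks was 1.92, 1.82, 2.18 and 1.89 in the early libraries and 3.44, 3.59, 3.68 and 3.73 in the late libraries. Over the lower peaks it was 3.78, 3.81, 3.61 and 4.02 early and 2.42, 2.30, 2.32 and 2.16 late.

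The count of calls depended on single libraries. Without KO early library 2 it was 1197 higher and 483 lower, without KO early library 4 1386 and 409, and without KO late libraries 2, 3 or 4 it was 1427 and 612, 1099 and 507, or 953 and 380. Without the libraries that correlated least with their groups, the first of each stage, it was 1698 and 818. Fitting only the 8 libraries compared gave 1436 and 484. In each of these fits more peaks were higher than lower.

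The peaks that gained accessibility most lay near genes of varied function. Near Kif13b, a kinesin motor gene, the peak read 2.85, 0.61, 0.49 and 0.76 in the early and 4.91, 3.99, 3.95 and 3.59 in the late KO libraries. Early library 1 stood above the other early libraries, yet every late library was higher still, with a difference of 2.94 ± 0.47 (log2, SE; limma adjusted p = 0.0001). The Ctrl values of this peak were 1.15, 2.33, 1.14 and 0.93 early and 0.68, 2.25, 2.06 and 2.23 late, which overlap. The peak near Mettl22, a lysine methyltransferase gene, read 1.09, 2.04, 1.21 and 1.96 in the early and 4.498, 4.20, 4.22 and 4.74 in the late KO libraries, a difference of 2.84 ± 0.42 (log2, SE; limma adjusted p = 2.65e-05). Its Ctrl values, 2.73, 1.57, 3.60 and 2.99 early and 3.51, 3.19, 3.34 and 2.56 late, lay between the KO early and KO late values, and one Ctrl early value fell within the KO early range. Near H2afz, which encodes the histone variant H2A.Z, the peak read 1.14, 1.76, 2.52 and 1.10 in the early and 4.71, 3.88, 4.57 and 4.38 in the late KO libraries, a difference of 2.753 ± 0.40 (log2, SE; limma adjusted p = 2.53e-05). Here too the Ctrl libraries, 2.35, 2.69, 2.74 and 2.46 early and 3.01, 3.00, 3.08 and 2.73 late, lay below all KO late libraries. The remaining increases, near the prolactin receptor gene Prlr (2.78), the stress-response gene Ndrg1 (2.746) and the solute carrier gene Slc22a23 (2.74), had limma adjusted p-values of 3.14e-05, 9.68e-05 and 7.62e-05, and their early and late libraries did not overlap. The Ctrl libraries at Slc22a23 read -0.08, 0.80, 0.51 and -0.20 early and 1.01, 2.03, 1.94 and 1.30 late and did not overlap either, with a difference of 1.31 ± 0.43 (log2, SE; limma adjusted p = 0.182). At Prlr and Ndrg1 the Ctrl libraries overlapped, with differences of 0.84 and 0.89.

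The peaks that lost accessibility most lay, all 6, within introns. The peak at Gsta2, a glutathione S-transferase gene (chr9:78351595-78351794), read 4.08, 4.11, 3.50 and 4.57 in the early and 0.98, 1.79, 2.12 and 1.19 in the late KO libraries, a difference of -2.55 ± 0.43 (log2, SE; limma adjusted p = 0.000244). The Ctrl libraries read 3.19, 2.96, 1.95 and 2.15 early and 1.72, 2.98, 2.51 and 1.92 late, so the KO early values lay above every Ctrl library. The peak at Fut10, a fucosyltransferase gene (chr8:31238082-31238281), read 4.81, 4.75, 4.11 and 5.65 in the early and 1.70, 2.82, 2.77 and 2.54 in the late KO libraries, a difference of -2.37 ± 0.41 (log2, SE; limma adjusted p = 0.000301). Its Ctrl libraries stayed near the KO early values, at 4.09, 5.14, 3.90 and 5.91 early and 4.62, 3.80, 4.32 and 4.53 late, and every KO late library lay below all of them. At Oprk1, the kappa opioid receptor gene, values were 3.36, 3.33, 3.70 and 3.95 in the early and 1.77, 1.33, 1.82 and 0.50 in the late KO libraries, a difference of -2.23 ± 0.43 (log2, SE; limma adjusted p = 0.00131). Ctrl values there were 1.81, 2.08, 1.48 and 2.755 early and 0.61, 0.87, 1.48 and 0.86 late. The intronic peaks of the chemokine gene Ccl22 (-2.41) and the endophilin gene Sh3gl3 (-2.29) also fell, with limma adjusted p-values of 0.000423 and 0.000689. The Ctrl differences (log2, ± SE) were -0.08 ± 0.43 at Ccl22, -0.95 ± 0.43 at Sh3gl3 and -1.07 ± 0.43 at Oprk1. None passed, with limma adjusted p-values of 0.976, 0.415 and 0.333.

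**Figure D1:**
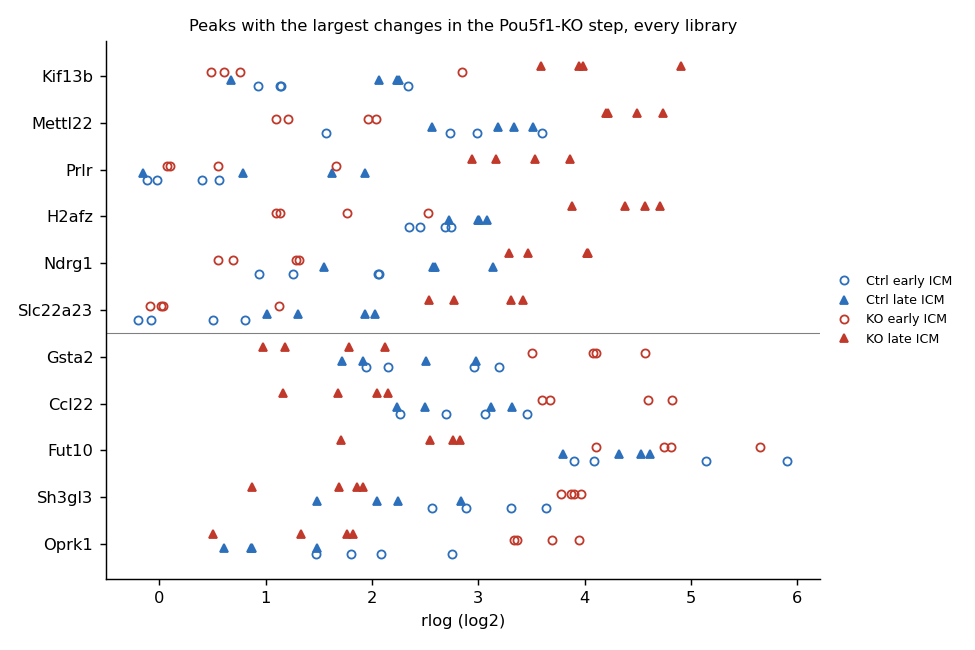
rlog (log2, horizontal axis) of the 6 peaks with the largest increases (upper rows) and 5 of the 6 with the largest decreases (lower rows) in the KO step, 1 symbol per library, for KO (red) and Ctrl (blue), early (open circles) and late ICM (triangles). Red circles and triangles do not overlap in any row, by the rule that chose the peaks, while Ctrl circles and triangles overlap in most rows.

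Both sets were then followed through the morula stages and Ctrl, whose levels were not compared to choose them, although all 44 libraries set the variance of the fit, with the KO ICM values repeated beside them. Mean rlog of the higher peaks was 1.81 ± 0.06 in KO morulae (E2.75), 2.58 ± 0.14 in KO late morulae (E3.25; SD, n = 3 each), 1.95 ± 0.16 in KO early ICM and 3.61 ± 0.13 in KO late ICM (SD, n = 4 each). In Ctrl it was 1.97 ± 0.04, 2.98 ± 0.06, 2.22 ± 0.16 and 2.57 ± 0.06 at the same stages. In both genotypes the late morula level lay above those of the morula and the early ICM. Morulae had neither the culture with the inhibitor nor the immunosurgery of the ICMs, so stage, treatment and tissue cannot be told apart between late morula and early ICM. The lower peaks read 3.59 ± 0.13, 3.22 ± 0.19, 3.80 ± 0.17 and 2.30 ± 0.11 in KO, and 3.48 ± 0.06, 2.89 ± 0.08, 3.33 ± 0.09 and 2.87 ± 0.09 in Ctrl.

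The same peaks had smaller median differences in the other ICM groups over the early to late step. Over the higher peaks the median difference was 1.62 in KO, 0.36 in Ctrl, 0.56 in Sox2-KO and 0.02 in the Ctrl of the Sox2 line. Over the lower peaks it was -1.53, -0.44, -0.18 and -0.04. Over all peaks it was -0.02, 0.01, -0.01 and 0.03. In the Ctrl of the Sox2 line the higher peaks thus showed no rise beyond that of all peaks. Selection on the KO libraries makes the KO value the most extreme of these, so the order of KO against the others is no finding, whereas the remaining groups did not choose the peaks. Compared with Ctrl at the same stage, the higher peaks had a median KO minus Ctrl difference of -0.26 in early and 1.09 in late ICM, and the lower peaks 0.45 and -0.49. These comparisons share the KO libraries with the step itself. In early ICM 12469 of all peaks (8.18%) differed between KO and Ctrl by limma, 4196 higher and 8273 lower in KO. Of the peaks that then rose, 145 (6.25%) differed, 11 higher and 134 lower in KO, a share near that of all peaks. In late ICM 1122 of them (48.4%) were higher in KO than in Ctrl, against 8.19% of all peaks. Of the peaks that fell, 198 (19.2%) had differed in early ICM, 170 higher and 28 lower in KO, and 284 (27.5%) were lower in KO in late ICM, against 10.1% of all peaks. The choice of the peaks on the KO libraries bears on each of these shares.

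**Figure D2:**
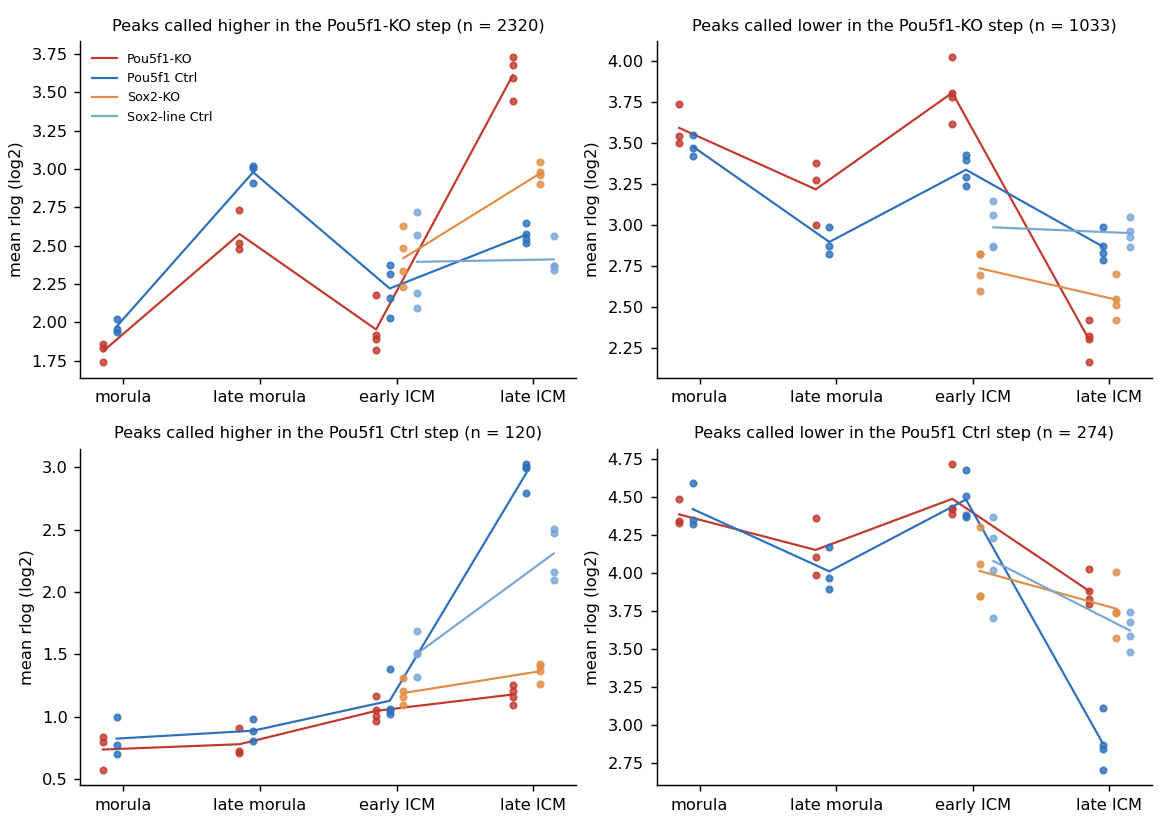
Mean rlog (log2, vertical axis) of 4 sets of peaks in every library, by stage (horizontal axis), with lines through group means. The upper panels show the peaks called in the Pou5f1-KO step, where KO goes from 1.95 to 3.61 and from 3.80 to 2.30 between early and late ICM. The lower panels show the peaks called in the Ctrl step. Their choice on the Ctrl libraries favours the gap seen there between Ctrl late and KO late ICM.

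The Ctrl step, early to late ICM with Oct4 made from the paternal allele, is the reference for the change that the KO embryos would have shared. It called 120 peaks higher (0.0787%) and 274 lower (0.18%). Leaving out 1 library gave 43 to 173 higher and 68 to 430 lower, and each of the 8 libraries moved at least 1 of these counts by over 1.5 times, so the sets followed here depend on single libraries. Keeping only peaks at or above the median level gave 28 higher. Selection on the Ctrl libraries makes the Ctrl change the most extreme at these peaks, so the order of Ctrl against the other groups is no finding. The peaks lower in Ctrl had lower values in late KO ICM as well. Their mean rlog was 4.38, 4.43, 4.42 and 4.72 in KO early and 4.02, 3.79, 3.88 and 3.83 in KO late libraries, which do not overlap. Of the 274 peaks, 90.1% were lower in KO late ICM, with a median of -0.61, against 51.8% of all peaks. The Ctrl of the Sox2 line, whose step was not used to choose these peaks, had a median of -0.42. The peaks higher in Ctrl had nearly equal values at both stages in KO. Mean rlog was 1.05, 0.96, 1.01 and 1.16 in KO early and 1.09, 1.25, 1.16 and 1.21 in KO late libraries, which overlap. The median difference was 0.06 in KO and 0.11 in Sox2-KO, against 0.82 in the Ctrl of the Sox2 line, where 98 of 120 (81.7%) were above 0, as were 65 (54.2%) in KO. The GATA word was in 57.7% of the lower Ctrl peaks and in 17.5% of all peaks, and the SOX word in 21.7% of the higher Ctrl peaks, 17.5% of the lower Ctrl peaks and 10.9% of all peaks.

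The KO and Ctrl lists shared 2 higher peaks, which is 0.0862% of the KO list and 1.67% of the Ctrl list, near the 1.52% of all peaks that were higher in KO. They shared 26 lower peaks, 2.52% of the KO list and 9.49% of the Ctrl list, against 0.678% of all peaks that were lower in KO. Across all peaks the KO and Ctrl steps, which share no library, correlated at r = 0.242 (Pearson, 152393 peaks that are not independent), and 57.3% of peaks had the same sign. Same-numbered KO and Ctrl early libraries deviated from their group means together in all 4 pairs (r = 0.121 to 0.162 across peaks), so the steps share part of their replicate deviations. The part of this in the KO values over the peaks called in Ctrl was not tested. Nor was its part in the overlap, the correlation and the score on the Ctrl line given below. The KO step correlated at 0.237 with the Sox2-KO step and at 0.0118 with the step of the Sox2-line Ctrl.

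Whether the step itself differed between KO and Ctrl was tested directly, as KO late minus early less Ctrl late minus early. No peak passed at an adjusted p under 0.05 by limma (0 higher and 0 lower, 0%), although 12131 peaks had an unadjusted p under 0.05, which is 7.96% of those tested. The standard error of this difference, 0.61 at the median peak, is larger than that of a single step, 0.43. With KO and Ctrl paired by replicate number within each stage, 58 peaks had a KO step above the Ctrl step and 26 a step below it, so the count depends on the pairing. Same-numbered KO and Ctrl libraries deviated together in all 4 pairs in early ICM, at r = 0.121 to 0.162, but in late ICM the pairs ranged from 0.0174 to 0.164. The larger count of calls in KO than in Ctrl does not by itself show that any given peak moved differently. The smallest adjusted p over all peaks was 0.0754 without pairing. The peaks named here are the most divergent within 100 kb of a protein-coding gene, 1 per gene, with chromosome 18 left out. The first with a larger KO step lies in an intron 30.6 kb from the TSS of Rab3b, a small GTPase gene (chr4:108969590-108969789). It read 3.74, 3.60, 3.90 and 4.01 in the early and 4.44, 4.43, 4.58 and 4.64 in the late KO libraries, against 3.74, 4.17, 3.82 and 3.40 early and 1.34, 2.02, 1.41 and 1.73 late in Ctrl, so the Ctrl late libraries alone were low. The difference of steps was 2.87 ± 0.57 (log2, SE; limma adjusted p = 0.0867, and 0.00464 when paired). In the opposite direction, a peak in an intron 45.4 kb from the TSS of A830018L16Rik (chr1:11473184-11473383) read 0.38, 1.20, 0.13 and 0.95 in the early and 0.41, 0.15, -0.01 and 0.19 in the late KO libraries, against 0.24, 1.06, 0.24 and 1.01 early and 3.13, 3.32, 3.26 and 2.89 late in Ctrl. The 4 Ctrl late libraries stood apart from all others, and the difference was -2.99 ± 0.66 (limma adjusted p = 0.114, and 0.03 when paired). Peaks nearest Rnf11 (2.33) and Osbp (2.53) on the positive side, and Ndufaf6 (-2.52) and Foxa2 (-2.77) on the negative side, each had a limma adjusted p of 0.114 without pairing. When paired, these were 0.00464, 0.0153, 0.0321 and 0.0323, so all 6 named peaks passed with the pairing and not in the unpaired fit of all libraries.

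All peaks together were summarised as a position on the line from the Ctrl early ICM mean (score 0) to the Ctrl late ICM mean (score 1), which no KO library helped to define. KO early libraries scored 0.0442, 0.0604, 0.0764 and -0.0066, and KO late libraries 0.221, 0.374, 0.336 and 0.351. The means were 0.0436 ± 0.0360 and 0.320 ± 0.0679 (SD, n = 4 each), a difference of 0.277 (exact permutation test, two-sided, p = 0.0286, the smallest that 4 against 4 can give). Every KO late library thus scored above every KO early library. A score of 1 is not the yardstick for other libraries, because replicate noise in the Ctrl means that draw the line lengthens it. The Ctrl of the Sox2 line, also outside the definition, went from 0.290 to 0.527 (difference 0.237), and Sox2-KO from 0.232 to 0.414 (difference 0.182). The distance off the line, as root mean square rlog per peak, was 0.945, 0.846, 0.878 and 0.922 in KO early and 0.982, 0.916, 0.952 and 0.952 in KO late libraries. These overlap, and the difference of 0.0531 did not pass (exact permutation test, p = 0.0857). Ctrl libraries lay at 0.439 to 0.561, partly because they define the line, Sox2-line Ctrl libraries at 0.632 to 0.862 and Sox2-KO libraries at 0.836 to 0.973, a range that overlaps that of Pou5f1-KO. Replicate noise alone keeps this distance above 0.

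**Figure D3:**
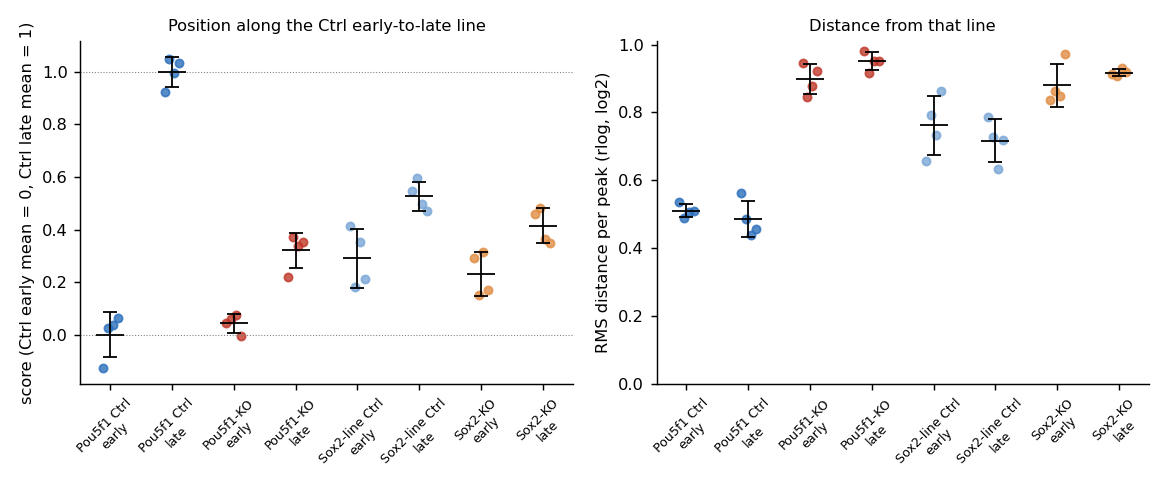
Left, position of each ICM library on the line from the Ctrl early mean (0) to the Ctrl late mean (1). Right, root mean square distance per peak from that line (rlog, log2 units). Points are libraries, bars the mean ± SD of 4, and the KO late libraries (0.221 to 0.374) sit above all KO early libraries (-0.0066 to 0.0764) on the left but overlap them on the right.

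Genes were read by the peaks within 10 kb of their TSS, in 10 lists. Trophectoderm genes had the largest share of higher peaks. Of 157 peaks at 21 genes, 9 (5.73%) rose and 0 fell, against 1.52% and 0.678% of all peaks. They lay at Gata2 (2 peaks), Id2 (2 peaks), Tfap2a, Elf5, Krt8, Krt18 and Krt19, which encode transcriptional regulators used in the outer lineage and keratins of its cytoskeleton. The median KO difference was 0.29 over the list and -0.02 over all peaks, and 71.3% of its peaks were above 0 against 48.2% of all. In Ctrl the median of the list was 0.12, and 58.0% of its peaks were above 0 against 51.2% of all. In Sox2-KO the median was 0.21 over the list and -0.01 over all peaks. Of the 21 genes, 7 had a called peak, and Cdx2, Gata3 and Eomes, which specify the lineage, had 0 of 8, 0 of 8 and 0 of 7 peaks called. Mean rlog over the list was 3.49 in KO early and 3.80 in KO late ICM, and 3.55 and 3.60 in Ctrl. The peak near Krt8 (chr15:102006437-102006636, 2.055 kb from the TSS) read 2.28, 1.30, 0.69 and 1.50 in the early and 3.21, 2.49, 3.79 and 3.35 in the late KO libraries, a difference of 1.77 ± 0.43 (log2, SE; limma adjusted p = 0.013). All late values lay above all early values, while Ctrl read 2.02, 2.77, 1.70 and 1.46 early and 3.46, 3.13, 1.43 and 1.97 late. The Krt19 peak (chr11:100155310-100155509, between genes) read -0.67, -0.77, 0.15 and -0.69 in the early and -0.00021, 0.94, 1.47 and 1.83 in the late KO libraries, a difference of 1.55 ± 0.37 (log2, SE; limma adjusted p = 0.00931), and the Ctrl difference was 0.29. Late library 1 overlapped the early libraries, and without late library 4 the call was lost (adjusted p = 0.0810 by limma). Without KO early or late library 3 the Krt8 call was lost as well (adjusted p = 0.0587 and 0.0696).

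Hippo pathway and TEAD genes had 7 higher (3.55%) and 0 lower of 197 peaks at 18 genes. These lay at Tead1 (3 peaks), Nf2 (2 peaks), Mob1b and Vgll4, of which TEAD1 is a DNA-binding partner of YAP1, merlin (Nf2) and MOB1B act upstream of YAP1 in the kinase cascade, and VGLL4 competes with YAP1 for TEAD. The median of the list was 0.03, close to that of all peaks. The peak in an Nf2 intron (chr11:4806067-4806266) read 3.68, 3.44, 3.45 and 4.32 in the early and 5.86, 5.04, 5.42 and 5.19 in the late KO libraries, a difference of 1.66 ± 0.29 (log2, SE; limma adjusted p = 0.000279), with Ctrl at 4.497, 4.40, 4.54 and 4.37 early and 4.39, 4.56, 4.49 and 4.80 late. KO early libraries lay below all Ctrl libraries and KO late libraries above them. The Mob1b peak (chr5:88715868-88716067) read 2.47, 0.75, 1.10 and 1.43 in the early and 3.42, 3.65, 3.49 and 3.751 in the late KO libraries, a difference of 2.14 ± 0.43 (log2, SE; limma adjusted p = 0.00205), and the Ctrl difference was 0.32.

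Naive pluripotency genes, such as Nanog, Esrrb, Klf4 and Tdgf1, had call shares near those of all peaks and a downward median. Of 226 peaks at 25 genes, 2 rose (0.885%, against 1.52% of all peaks) and 2 fell (0.885%, against 0.678%). The median difference was -0.17 in KO and 0.07 in Ctrl, and 32.3% of the peaks were above 0 in KO against 56.2% in Ctrl, where 48.2% and 51.2% of all peaks were. In Sox2-KO the median of the list was 0.18. The list's mean rlog was 3.55 in KO early and 3.40 in KO late ICM, below the 4.04 and 4.11 of Ctrl at both stages. The 2 that fell lay at Dppa3 and Tdgf1. A peak near Utf1 (chr7:139937248-139937447), a gene that marks pluripotent cells, rose from 4.61, 3.39, 3.89 and 3.70 to 5.41, 5.58, 5.08 and 5.30, a difference of 1.44 ± 0.32 (log2, SE; limma adjusted p = 0.00441), and the Ctrl difference was 0.32. A peak 0.329 kb from the TSS of Dppa4 read 2.52, 3.36, 3.27 and 2.46 in the early and 4.19, 3.98, 4.72 and 4.23 in the late KO libraries, a difference of 1.38 ± 0.34 (log2, SE; limma adjusted p = 0.0132), and its late values approached those of Ctrl (3.53, 4.51, 4.27 and 3.93 early and 4.72, 4.40, 5.14 and 4.61 late). The Dppa4 call was lost without KO early library 4 or KO late library 3 (adjusted p = 0.0632 and 0.0699). It was also lost when only the libraries compared were fitted (limma adjusted p = 0.0565).

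The other lists had shares at or near those of all peaks or held too few calls to describe. LIF and STAT3 genes had 1 of 107 peaks higher, at the IL-6 receptor gene Il6ra (1.71 ± 0.39, limma adjusted p = 0.0063), and 1 lower, near Ptpn11, which encodes the phosphatase SHP2 (-1.26 ± 0.34, limma adjusted p = 0.0237). Primitive endoderm genes had 1 of 130 higher, in an intron of the adaptor gene Dab2 (1.49 ± 0.43, limma adjusted p = 0.038), and 1 lower, near the laminin gene Lamb1 (-1.41 ± 0.42, limma adjusted p = 0.0486). At the Dab2 peak the Ctrl libraries read 2.753, 1.46, 2.28 and 2.92 early and 3.20, 3.47, 3.23 and 4.21 late, which do not overlap, with a difference of 1.17 ± 0.43 (log2, SE; limma adjusted p = 0.259), and Sox2-KO differed by 1.30 ± 0.43 (log2, SE; limma adjusted p = 0.135). The KO step less the Ctrl step was 0.32 ± 0.60 (log2, SE; limma adjusted p = 0.939). The Ctrl differences were 0.31 at Il6ra, -0.90 at Ptpn11 and -0.16 at Lamb1. The Lamb1 peak read 3.61, 3.14, 4.29 and 3.95 in the early and 3.42, 1.59, 3.05 and 1.30 in the late KO libraries, which overlap. The Ptpn11, Dab2 and Lamb1 calls were lost when single libraries were left out, without KO late library 4 at adjusted p-values of 0.0820, 0.0947 and 0.277 by limma. The Dab2 call was also lost without any other single KO late library and under quantile normalization (limma adjusted p = 0.0527). Fitting only the libraries compared lost the Lamb1 call (limma adjusted p = 0.103). Chromatin regulators had 3 of 179 higher, at the maintenance DNA methyltransferase gene Dnmt1, at Uhrf1, whose product brings DNMT1 to DNA, and at the histone deacetylase gene Hdac1, and 1 lower, at the Polycomb gene Eed. The Uhrf1 peak (chr17:56305477-56305676) read 1.57, 2.00, 3.42 and 1.52 in the early and 3.97, 4.16, 3.751 and 4.76 in the late KO libraries, a difference of 2.03 ± 0.44 (log2, SE; limma adjusted p = 0.00383). The Dnmt1 peak read 4.18, 2.83, 2.44 and 1.28 in the early and 4.57, 4.23, 3.91 and 4.59 in the late KO libraries, which overlap, and its difference of 1.64 ± 0.44 (log2, SE; limma adjusted p = 0.0242) was lost without KO early library 4 (adjusted p = 0.211). The Ctrl differences were 0.34 at Uhrf1 and 0.39 at Dnmt1.

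Genes of p53 signalling and apoptosis had 1 of 121 peaks higher, in an intron of Mdm2, the ubiquitin ligase that restrains p53 (chr10:117693636-117693835). It read 1.14, 0.93, 1.97 and 0.53 in the early and 3.81, 3.50, 3.53 and 3.05 in the late KO libraries, a difference of 2.33 ± 0.45 (log2, SE; limma adjusted p = 0.00113). The Ctrl libraries read 0.41, 1.50, 1.35 and 0.25 early and 2.03, 2.08, 2.73 and 2.72 late, which do not overlap either, with a difference of 1.51 ± 0.45 (log2, SE; limma adjusted p = 0.121). The KO and Ctrl steps there did not pass as different (0.82 ± 0.63, limma adjusted p = 0.794). The next in the list, near the pro-apoptotic gene Bcl2l11, differed by 1.23 ± 0.46 (log2, SE; limma adjusted p = 0.152). No peak passed among 112 at formative and primed genes, 199 at FGF and ERK genes or 42 at post-implantation lineage genes. At an unadjusted p under 0.05, 7 were higher and 7 lower, 8 higher and 17 lower, and 5 higher and 3 lower in these lists, which is 12.5%, 12.6% and 19.05% of their peaks. Of all peaks 14.6% had such a p in the KO step, so these shares are near the background. The peaks nearest to passing there were at Fgf5 (-1.34 ± 0.41, limma adjusted p = 0.0563), Lefty1 (-1.44 ± 0.44, limma adjusted p = 0.0571), Fgf8 (-1.46 ± 0.47, limma adjusted p = 0.075), Pax6 (-1.28 ± 0.41, limma adjusted p = 0.0711) and Sox1 (1.28 ± 0.44, limma adjusted p = 0.111).

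**Figure D4:**
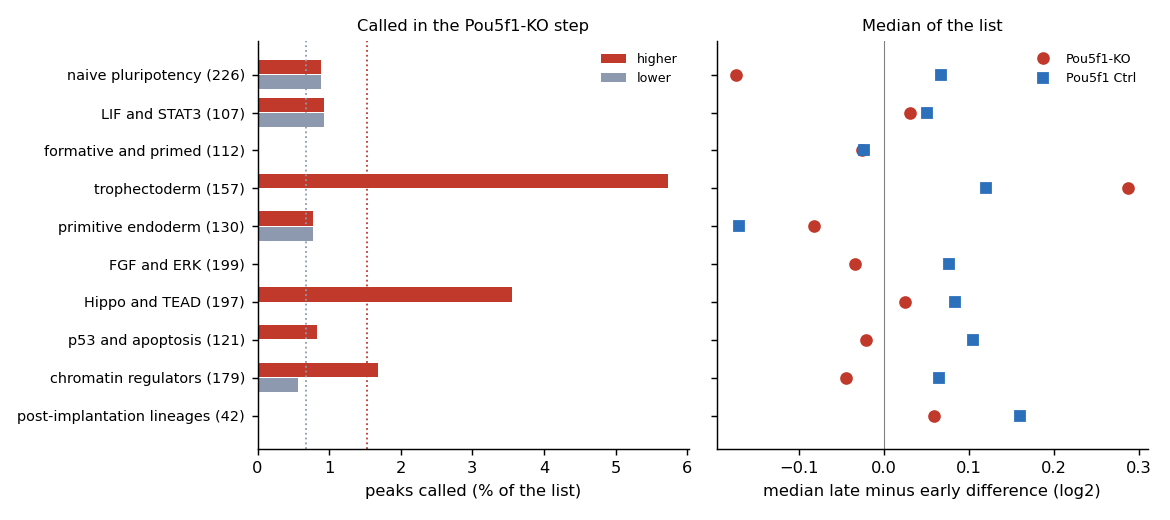
Left, percent of the peaks within 10 kb of the TSSs of each gene list (number of peaks in brackets) called higher (red) or lower (grey) in the KO step, with dotted lines at the shares of all peaks, 1.52% and 0.678%. Right, median late minus early difference (log2) of each list in KO (circles) and Ctrl (squares), with the trophectoderm list at 0.29 and the naive list at -0.17 in KO.

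Promoters of lineage markers were read for the make-up of the ICMs. None of the 13 peaks within 1 kb of the TSSs of 6 trophectoderm markers (Cdx2, Gata3, Eomes, Elf5, Krt8, Krt18) was called, and neither was any of 16 at primitive endoderm markers (Gata4, Gata6, Sox17, Sox7, Pdgfra, Dab2). With 1.52% of all peaks higher and 0.678% lower, a count of 0 among so few peaks is no result. Mean rlog at the trophectoderm promoters was 3.01 to 3.42 in KO early, 3.11 to 3.62 in KO late, 3.12 to 3.53 in Ctrl early and 3.09 to 3.55 in Ctrl late libraries, which overlap. At primitive endoderm promoters it was 3.18 to 3.47, 3.18 to 3.54, 2.95 to 3.40 and 3.06 to 3.56. At promoters of 6 epiblast markers (Nanog, Sox2, Klf2, Esrrb, Fgf4, Tdgf1) it was 3.14 to 3.74 in KO early and 2.85 to 3.23 in KO late, below all Ctrl libraries (4.04 to 4.27 and 4.22 to 4.32), and 1 of 13 peaks fell, at Tdgf1. Open promoters are shared by many cell types, so these values do not settle which cells were present. A change in the share of cells of a type and a change within cells cannot be told apart in pooled ICMs.

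Peaks at 9 known enhancers of pluripotency genes were read next. These were enhancers of Prdm14, Pecam1, Pou5f1 (conserved region 4), Sox2 (SRR2), Klf4, Nanog (distal and proximal), Utf1 and Klf2. The count called was 0 of 9, with a smallest limma adjusted p of 0.188. Since 1.52% and 0.678% of all peaks were called, a count of 0 among 9 is no result about the enhancers. In early ICM 6 of them were called lower in KO than in Ctrl, against 5.43% of all peaks, and in late ICM 7 were, against 10.1%. The Utf1 enhancer (chr7:139945620-139945819) read 1.37, 1.56, 1.73 and 1.33 in the early and 2.29, 1.76, 1.13 and 2.14 in the late KO libraries, against 5.41, 5.41, 5.20 and 4.85 early and 4.33, 4.93, 5.12 and 5.30 late in Ctrl. It was thus low in all 8 KO libraries. The Sox2 SRR2 enhancer (chr3:34653965-34654164) read 0.91, 1.21, 1.06 and 2.45 in the early and 0.95, 1.47, 1.49 and 1.15 in the late KO libraries, against 2.23, 3.22, 3.89 and 4.15 early and 3.85, 4.88, 4.19 and 4.56 late in Ctrl, with a KO difference of -0.14 ± 0.43 (log2, SE; limma adjusted p = 0.931). The Klf2 enhancer (chr8:72334361-72334560) read 3.93, 4.46, 3.88 and 4.51 in the early and 3.88, 3.24, 3.38 and 2.52 in the late KO libraries. The lowest early and the highest late value were almost equal, and the difference of -0.94 ± 0.38 (log2, SE; limma adjusted p = 0.188) did not pass. None of the 4 peaks within 2 kb of Sox2 passed (smallest limma adjusted p = 0.544).

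Sequence words differed between higher and lower peaks. The CDX word was in 14.5% of the higher peaks, 1.65% of the lower peaks and 3.03% of all peaks. The TEAD word was in 26.03%, 11.2% and 18.9%, the AP-1 word (TGA, any base, TCA) in 11.03%, 5.32% and 7.75%, and the TFAP2 word (GCCT, any base, AGGC) in 3.19%, 0.968% and 1.92%. In the 120 peaks higher in the Ctrl step, the CDX word was in 5.83%, TEAD in 20.0%, AP-1 in 19.2% and TFAP2 in 0%. At least 1 of these 4 words was in 46.1% of the higher, 17.4% of the lower and 28.3% of all peaks. The GATA word was in more of the lower than of the higher peaks, with 21.98% of the higher, 32.8% of the lower and 17.5% of all peaks, as were the SOX word (10.3%, 19.2% and 10.9%) and the ESRRB word AAGGTCA (6.72%, 14.4% and 9.66%). The OCT-SOX word, the SOX part CATTGT and the OCT part ATGCAAA separated by 1 free base and with up to 2 mismatches, was in 0.474%, 0.871% and 1.27%. The OCT part alone, matched exactly, was in 3.49%, 3.48% and 4.81%. Words for KLF (GGGTGTG; 10.8%, 14.4% and 14.9%), EOMES (GGTGTGA; 5.78%, 5.03% and 5.78%), FOX (TGTTTAC; 4.35%, 4.36% and 3.26%) and CTCF (CCACNAG, 2 free bases, GGC; 0.172%, 0.290% and 1.43%) showed no split between higher and lower peaks of the size seen for CDX. Both strands were searched. The EOMES and KLF words can overlap, and so can the OCT-SOX word and its parts. A word is a description of the window and does not show that a factor bound there.

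The words were also followed over all peaks that hold them, called or not. The 4617 peaks with a CDX word had a median difference of 0.27 in KO, 0.08 in Ctrl, 0.20 in Sox2-KO and -0.03 in the Ctrl of the Sox2 line. Their mean rlog was 2.21, 2.14, 2.33 and 2.28 in KO early, 2.39, 2.60, 2.65 and 2.65 in KO late, 2.32, 2.22, 2.37 and 2.31 in Ctrl early and 2.33, 2.36, 2.42 and 2.47 in Ctrl late libraries. All KO late libraries thus lay above all KO early libraries, and of the peaks with the word 7.30% rose and 0.368% fell. The 28774 peaks with a TEAD word had a median of 0.06 in KO and 0.03 in Ctrl. Their mean rlog was 2.55, 2.59, 2.76 and 2.70 in KO early and 2.57, 2.77, 2.84 and 2.79 in KO late libraries, which overlap, unlike those of the CDX word. The 26599 peaks with a GATA word had a median of -0.05 in KO and -0.17 in Ctrl. Their mean rlog was 2.61, 2.56, 2.68 and 2.80 in KO early and 2.56, 2.63, 2.72 and 2.67 in KO late libraries, which overlap. In Ctrl it was 2.62, 2.46, 2.52 and 2.63 early and 2.38, 2.36, 2.36 and 2.40 late, with every late library below every early one. The 1929 peaks with an OCT-SOX word had a median of -0.10 in KO and 0.15 in Ctrl.

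**Figure D5:**
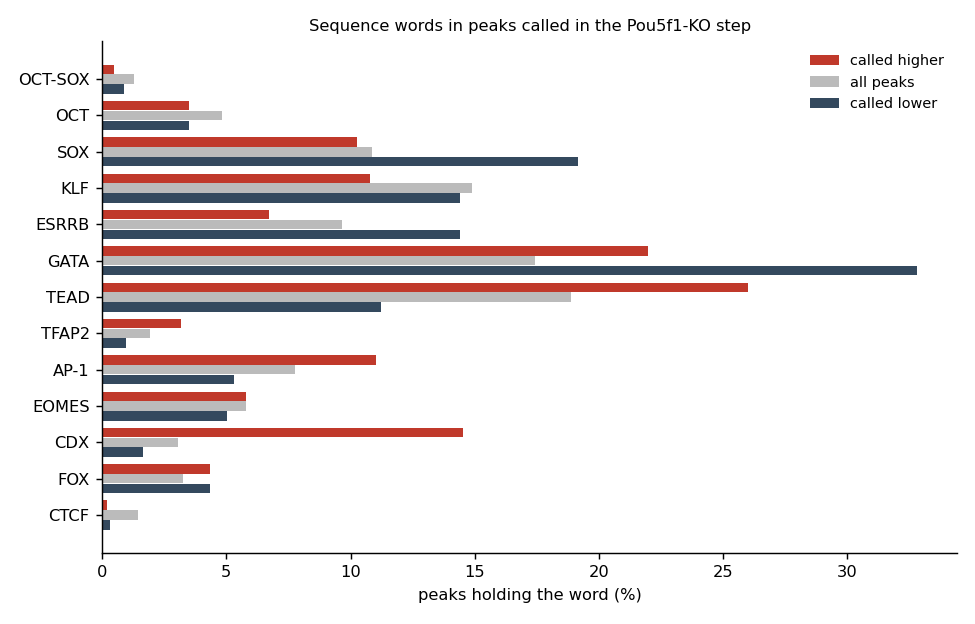
Percent of peaks (horizontal axis) that hold each of 13 sequence words, for peaks called higher (red) and lower (dark blue) in the KO step and for all peaks (grey). The CDX word stands at 14.5% of higher and 1.65% of lower peaks, and the GATA word at 21.98% and 32.8%.

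Called peaks lay away from promoters. Within 100 bp of a TSS were 1.42% of the higher, 1.55% of the lower and 7.77% of all peaks, and within 1 kb 8.45%, 9.97% and 19.5%. The median distance to a TSS was 8.70 kb, 9.38 kb and 6.75 kb. Introns held 53.7% of the higher and 44.4% of the lower peaks (47.4% of all), and 40.0% and 52.1% lay between genes (42.3% of all). GC content was 48%, 47% and 50% at the median. Chromosome X held 1.98% of the higher, 4.36% of the lower and 2.90% of all peaks. The median KO difference was -0.130 over the peaks of chromosome X and lay between -0.054 and 0.028 on every autosome. The cause of this shift was not tested. The mean rlog over all 44 libraries was 2.50 for the higher, 3.04 for the lower and 2.59 for all peaks.

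The KO step was last compared with that of Sox2-KO, which lacks the partner factor. Sox2-KO called 507 higher (0.333%) and 102 lower (0.0669%) peaks. Leaving out 1 library gave 65 to 1064 higher and 20 to 182 lower, and every Sox2-KO library except late library 4 moved both counts by over 1.5 times. The step of the Sox2-line Ctrl called 723 higher (0.474%) and 184 lower (0.121%) peaks. More higher than lower calls were thus not particular to the KO steps. The KO and Sox2-KO lists shared 88 higher peaks, 3.79% of the KO list and 17.4% of the Sox2-KO list, against 1.52% of all peaks that were higher in Pou5f1-KO. They shared 2 lower peaks, 0.194% and 1.96%, against 0.678% of all peaks. The test of the difference called 13 peaks with a Pou5f1-KO step above the Sox2-KO step (0.00853%) and 37 with a step below it (0.0243%). These counts were not stable, with 1 to 64 above and 5 to 238 below on leaving out 1 library, where only Pou5f1-KO early library 1 and Sox2-KO early library 4 moved neither by over 1.5 times. They were 1 and 2 after quantile normalization and 2 and 1 with no trend in the variance prior. Over the 13 the median step was 1.64 in Pou5f1-KO and -1.18 in Sox2-KO, and over the 37 it was -1.10 and 0.85. The 2 lines were separate crosses, each with its own Ctrl. Over the same peaks the median Ctrl step was 0.16 and -0.19 in the Pou5f1 line and -0.17 and 0.43 in the Sox2 line. With the Ctrl step of each line subtracted, an alternative chosen after seeing the data, no peak passed by limma (0 higher and 0 lower, 0%), and 8033 peaks (5.27%) had an unadjusted p under 0.05. The median of that difference was 2.27 over the 13 and -1.36 over the 37, with a standard error of 0.86 at the median peak. Of the peaks described above, the one near Il6ra rose in Sox2-KO too (1.83 ± 0.39, limma adjusted p = 0.0135).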

How the data were processed

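Per the labels and the study's methods, the authors aligned trimmed reads with Bowtie2 (build mm10), dropped duplicates with Picard, kept unique reads off chrY and chrM, shifted read ends to the insertion site, called peaks with MACS2, merged them into windows of 200 bp, counted insertions with bedtools and applied the rlog transformation of DESeq2 (versions not given in the sources used here). The deposited values are therefore log2 values scaled for library size, with weak peaks shrunk toward the mean over libraries, which understates their differences. Counts were not used here, so read depth is unknown. The deposited group means equalled the means of the library columns.

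Each of 12 groups was given 1 mean in limma 3.58.1 (R 4.3.3), fitted to all 44 libraries and 152393 peaks (32 residual degrees of freedom, variance prior with trend). Single values per library were compared by exact permutation tests. Peaks were annotated with GENCODE release M21 (the study used M23) and sequence came from RefSeq GRCm38. A peak counted as intronic when its centre lay in an intron of any annotated gene, which need not be the gene named. Peaks named in the text were the 6 largest increases and 6 largest decreases among called peaks without overlap between libraries, at most 1 per nearest protein-coding gene and within 100 kb of a TSS, the 2 with the smallest p in each gene list within 10 kb, the 3 most divergent from Ctrl in each direction within 100 kb, the 9 known enhancers and peaks within 2 kb of Pou5f1 or Sox2, with chromosome 18 left out of the first and the third, and 1 of the 6 decreases is not reported here, both for reasons unrelated to their values. These peaks stayed in every fit and count. The comparison and the lists were chosen with earlier results of these data known. Gene lists had 8 genes without a peak within 10 kb, of which Cyr61 and Ctgf were not found by these symbols in the annotation.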

Additional observations from a re-analysis of the deposited data

Results flagged for a closer look

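In 118 groups of 4 libraries tested, 7 had 1 library far from the others, where chance gives about 1 in 20 (Dixon's criterion). In KO early ICM these were 2.85 at the Kif13b peak (library 1), 1.12 at the Slc22a23 peak (library 3), 0.15 at the Krt19 peak (library 3), 3.81 at the Sox2 peak on chromosome 3 that starts at 34653246 (library 4), and a mean rlog of 4.72 over the peaks lower in Ctrl (library 4). In KO late ICM they were 4.34 at the Il6ra peak (library 2) and 3.00 at the Pou5f1 intron peak that starts at 35506842 on chromosome 17 (library 1). The early to late step differed between Pou5f1-KO and Sox2-KO in the test of the difference itself at 13 peaks above and 37 below, and these counts changed with the processing.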

How the results depend on the processing

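For the KO step, fitting only the libraries compared gave 1436 higher and 484 lower peaks, and keeping only peaks at or above the median level 1212 and 672. Leaving out 1 library gave 953 to 2544 higher and 380 to 1063 lower. Median centring, which moved the share of higher calls, gave 2065 and 1254, and a replicate block by line and number 2674 and 1249. For the Ctrl step, the peaks at or above the median gave 28 higher, the libraries compared 183 higher and no trend 104 lower, and leaving out 1 library 43 to 173 higher and 68 to 430 lower. For the difference KO minus Ctrl, the libraries compared gave 1 higher and 1 lower, quantile normalization 1 higher, the replicate block 2 and 1, the replicate block within stage 58 and 26, leaving out 1 library 0 to 1 higher, and leaving out both first KO libraries 1 higher. Deviations of same-numbered libraries correlated at -0.0029 to 0.123 between KO early and late, at 0.121 to 0.162 between KO and Ctrl in early ICM and at 0.0174 to 0.164 in late ICM, so only KO and Ctrl in early ICM had every pair above 0.1. In the Sox2-KO step no trend gave 211 higher and 54 lower, the libraries compared 277 and 24, quantile normalization 291 and 67 and the replicate block 787 and 205, with 65 to 1064 and 20 to 182 on leaving out 1 library. For Pou5f1-KO minus Sox2-KO, no trend gave 2 higher and 1 lower, the libraries compared 2 and 7, quantile normalization 1 and 2 the median filter 3 and 20 and subtracting the Ctrl step of each line 0 and 0, with 1 to 64 and 5 to 238 on leaving out 1 library. A block within stage across the lines was not run for it. The pairing by number gave the same axis advance of 0.277 with p = 0.125, the smallest that an exact sign-flip of 4 pairs allows. On leaving out 1 library, Ctrl included, the advance was 0.221 to 0.310 and the distance 0.0358 to 0.0688. The correlation of steps was 0.303 above the median level and 0.207 to 0.259 on leaving out 1 library, and shared higher calls were 1 under quantile normalization and 4 above the median level.

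Within 50 kb, LIF and STAT3 genes had 1.98% higher and 0.567% lower, formative genes 1.52% and 0.303%, primitive endoderm genes 1.37% and 1.92%, and FGF and ERK genes 1.38% and 0.346%, while lower shares were 0.482% for trophectoderm, 0.240% for p53, 1.05% for chromatin regulator and 2.44% for post-implantation genes. Primitive endoderm genes had 0% higher under quantile normalization. With 3 mismatches the OCT-SOX word was in 5.47% of higher, 4.94% of lower and 7.07% of all peaks. Beyond 1 kb of a TSS the CTCF word was in 0.108% of lower peaks, and at a difference of at least 1, 0.920% of lower peaks lay within 100 bp. The cause of these shifts was not tested. Of 26 named peaks called, 19 kept the call in every alternative and 7 lost it in at least 1, and none changed sign.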

Other observations

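Several genes held more than 1 called peak among the peaks nearest to their TSS (within 100 kb). They were picked after their values were seen, and 1.52% of all peaks were called higher and 0.678% lower. Hk2, the hexokinase 2 gene of glycolysis, had 7 higher and 0 lower of 36 peaks, Gulp1, an engulfment adaptor gene, 5 higher of 10, and Cmklr1, a chemoattractant receptor gene, 4 higher of 9. Eed, which encodes a core subunit of Polycomb repressive complex 2, had 3 lower and 0 higher of 22, and the mismatch repair gene Msh6 3 lower of 14. Peaks of 1 gene can share a regulatory domain and are not replicates.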
